A study of Homo sapiens with 2 samples.

Results

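The immunoglobulin heavy chain constant genes were examined in native RNA of GM12878, a human B-lymphoblastoid line transformed with Epstein-Barr virus. The genes are IGHM, IGHD, IGHG1, IGHG2, IGHG3, IGHG4, IGHA1 and IGHA2, and they were chosen by symbol: every transcript model that the deposited table assigned to 1 of these 8 genes was taken, out of 16645 annotated genes with a read. They held 1093 of the 237608 transcript models in the table. The series addressed how transcripts can be discovered and counted from long reads, and it holds 2 direct RNA libraries (Oxford Nanopore kit SQK-RNA002, flow cell FLO-MIN106D) of this 1 cell line, with no treatment named. The labels do not say whether the libraries came from separate cultures. Every p-value below compares the reads of these 2 libraries and allows for counting error only, not for spread between libraries. A difference between them may be technical. All values describe this 1 transformed line.

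A B cell joins a variable region to a constant gene, and the constant gene sets the class of the antibody. The constant genes lie in a row behind the variable segments, with IGHM first, and class switching deletes the genes in front of the chosen one. From each constant gene, the choice between an early polyadenylation site and splicing to the membrane exons yields either a secreted antibody or the heavy chain of the surface receptor.

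The ends of the coding sequences show what separates the forms that are counted here. They were read from GENCODE release 29 on GRCh38, minus strand of chromosome 14, and are written 5′ to 3′. The lower-case bases are the last 18 that both forms share, and capitals mark the bases of that form alone, up to and including the stop codon. In IGHM the secreted capitals lie at chr14:105854343-105854404, inside the last exon of the constant domains, and the membrane capitals lie on separate exons at chr14:105852148-105852263 and chr14:105851966-105851974.
IGHM secreted: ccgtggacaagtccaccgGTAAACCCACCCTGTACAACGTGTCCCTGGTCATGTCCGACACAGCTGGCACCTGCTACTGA
IGHM membrane: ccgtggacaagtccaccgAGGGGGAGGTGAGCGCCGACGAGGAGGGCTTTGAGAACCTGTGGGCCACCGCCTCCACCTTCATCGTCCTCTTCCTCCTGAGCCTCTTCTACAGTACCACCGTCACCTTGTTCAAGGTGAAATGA
In IGHA1 the secreted capitals lie at chr14:105707168-105707229 and the membrane capitals at chr14:105704388-105704584. The membrane part of IGHA2 lies at chr14:105584154-105584368.
IGHA1 secreted: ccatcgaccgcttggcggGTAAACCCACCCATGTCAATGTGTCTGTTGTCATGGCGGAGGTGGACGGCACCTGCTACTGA
IGHA1 membrane: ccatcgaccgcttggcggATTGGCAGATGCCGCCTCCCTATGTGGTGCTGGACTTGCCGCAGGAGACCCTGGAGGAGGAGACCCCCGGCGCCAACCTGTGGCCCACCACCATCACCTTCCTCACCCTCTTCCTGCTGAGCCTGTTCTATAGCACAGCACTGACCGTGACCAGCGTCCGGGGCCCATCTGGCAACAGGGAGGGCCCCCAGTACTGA
IGHA2 membrane: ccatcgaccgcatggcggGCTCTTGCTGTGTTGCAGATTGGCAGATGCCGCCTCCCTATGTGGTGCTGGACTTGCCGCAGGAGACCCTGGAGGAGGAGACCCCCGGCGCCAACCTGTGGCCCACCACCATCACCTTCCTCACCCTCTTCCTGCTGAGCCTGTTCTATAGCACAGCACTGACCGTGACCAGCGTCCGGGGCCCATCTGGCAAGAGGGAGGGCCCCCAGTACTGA
In IGHG1 the secreted capitals lie at chr14:105741473-105741480 and the membrane capitals at chr14:105740063-105740193 and chr14:105737762-105737845.
IGHG1 secreted: gcctctccctgtctccggGTAAATGA
IGHG1 membrane: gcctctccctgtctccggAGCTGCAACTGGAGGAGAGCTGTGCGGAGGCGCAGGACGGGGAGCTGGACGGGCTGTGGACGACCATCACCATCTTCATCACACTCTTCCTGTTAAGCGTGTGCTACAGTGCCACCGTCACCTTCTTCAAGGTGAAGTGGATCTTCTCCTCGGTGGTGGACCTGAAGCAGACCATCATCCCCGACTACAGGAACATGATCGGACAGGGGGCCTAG
The secreted part began with GT in IGHM, IGHA1, IGHA2 and IGHG1, where the membrane form splices out of the exon. The annotated membrane part was 197 bases long in IGHA1 and 215 in IGHA2. IGHA2 had 18 extra bases at its start, GCTCTTGCTGTGTTGCAG, and after them the sequences differed at 1 base.

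The 2 IgA genes also differ in the hinge, which is encoded at the start of the second exon. Both stretches below begin at the first base of that exon, at chr14:105708065-105708144 in IGHA1 and chr14:105587834-105587874 in IGHA2. Capitals mark the 39 bases of IGHA1 that the alignment left without a partner in IGHA2. The whole exon was 360 bases in IGHA1 and 321 in IGHA2.
IGHA1 hinge: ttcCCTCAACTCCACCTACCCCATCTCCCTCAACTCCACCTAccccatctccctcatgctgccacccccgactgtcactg
IGHA2 hinge: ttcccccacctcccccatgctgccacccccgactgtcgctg
Over the aligned bases of the secreted coding sequences, IGHA1 and IGHA2 were 96.1% identical, and their longest shared run was 115 bases. Within IgG, identity over aligned bases ranged from 94.9% for IGHG3 and IGHG4 to 96.4% for IGHG2 and IGHG3, with shared runs of up to 164 bases. Of the longer sequence of a pair, at most 45.2% was identical between IGHM and any other member, and at most 43.3% for IGHD. A read that covers only a shared run cannot be told apart between the genes of a class, so values of single IgG or IgA genes are uncertain.

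**Figure D1:**
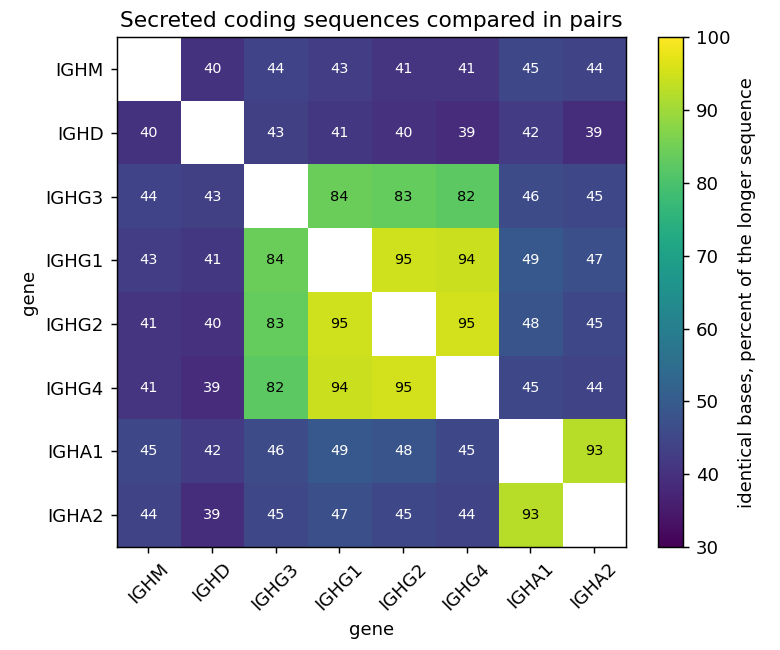
Identical bases between the secreted coding sequences of the 8 genes, as a percent of the longer sequence of each pair (color scale from 30 to 100%). The IgG genes form a block, with lower values for IGHG3, and IGHA1 and IGHA2 form a pair at 92.6%.

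Replicate 1 held 1360368 reads and replicate 2 held 1510998, so that 1 read was worth 0.735 and 0.662 CPM (reads scaled to a common library total). Known models, those whose splice junctions match an annotated transcript, received 55.9% of all reads in replicate 1 and 45.9% in replicate 2. The listed B cell markers were all detected (7 of 7, summed 8974 and 9316 CPM). T cell markers summed to 5.88 and 17.2 CPM with CD3D and CD8A at 0, CD3E at 5 and 16 reads and CD2 at 3 and 10, neither of which passed the test between libraries. Monocyte markers summed to 1.47 and 1.32 CPM with LYZ and S100A8 at 0, and erythroid markers to 0.735 and 0 CPM with HBB at 0. A count of 0 allowed up to 3 reads, or 2.21 and 1.99 CPM.

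IgA was the leading class. The constant genes received 5993 reads in replicate 1, 0.441% of that library (95% Wilson interval 0.430 to 0.452%), and 8758 reads in replicate 2, 0.580% (0.568 to 0.592%). Of these, IGHA1 and IGHA2 together took 5232 reads (87.3%, 86.4 to 88.1%) and 7935 reads (90.6%, 89.97 to 91.2%), a mean of 88.95% ± 2.33 (SD, n = 2). The 4 IgG genes together took 376 reads (6.27%) and 262 reads (2.99%). IgM took 5.99% and 6.05%, and IgD 0.434% and 0.354%. IgM thus held nearly the same share in both libraries, whereas the IgG share of replicate 1 lay above that of replicate 2 with Wilson intervals that did not overlap (5.69 to 6.92% and 2.65 to 3.37%). Intervals cover counting error only, and in a bulk sample more cells of a class and more RNA per cell cannot be told apart.

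A direct RNA read is 1 strand of RNA, so reads were not divided by length for these shares. Divided by the read-weighted length of the known models of each gene, or of all its models where no known model had a read, IgA took 85.3%, with 56.3% for IGHA2 and 28.99% for IGHA1, the same order as by reads. With known models only, the order turned, with 89.0% for IGHA1 and 0% for IGHA2, which had no read in a known model.

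IGHA2, which encodes the IgA2 heavy chain (ENSG00000211890.4, chr14:105583731-105588395), had the highest count. It received 4265 reads (3135 CPM) in replicate 1 and 5941 reads (3932 CPM) in replicate 2, a mean of 3534 CPM ± 563, and ranked 34 among all annotated genes. IGHA1, which encodes the IgA1 heavy chain (ENSG00000211895.5, chr14:105703995-105708665), followed with 967 reads (711 CPM) and 1994 reads (1320 CPM), a mean of 1015 CPM ± 431 and rank 150. By model label, IGHA2 lay above IGHA1 in each library, and the values of the 2 genes did not overlap. The split of reads between them is uncertain because of the runs that the 2 genes share. IGHA2 models also fell in several stretches of model identifiers, described below, which cannot show where the reads aligned.

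IGHM, the first class that a B cell makes (ENSG00000211899.10, chr14:105851705-105856218), received 359 reads (264 CPM) and 530 reads (351 CPM), a mean of 307 CPM ± 61.4. IGHG1, which encodes the IgG1 heavy chain (ENSG00000211896.7, chr14:105736343-105743071), received 290 reads (213 CPM) and 194 reads (128 CPM), a mean of 171 CPM ± 59.95. IGHM lay above IGHG1 in both libraries.

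The other members were low. IGHG4 (ENSG00000211892.4, chr14:105620506-105626066) had 42 and 44 reads, a mean of 29.997 CPM ± 1.24. IGHD, which is co-expressed with IGHM by alternative splicing in naive B cells (ENSG00000211898.7, chr14:105836765-105845678), had 26 and 31 reads (19.8 CPM ± 0.993). IGHG3 (ENSG00000211897.9, chr14:105764503-105771405) had 36 and 18 reads (19.2 CPM ± 10.3), and IGHG2 (ENSG00000211893.4, chr14:105639559-105644790) had 8 and 6 reads (4.93 CPM ± 1.35). The IGHG3 values of 26.5 and 11.9 CPM spanned those of IGHD, so the order of these neighbours is not resolved. By model label, IGHG4 lay above both genes and IGHG2 below both in each library. As the split of reads among the IgG genes is uncertain, so is this order.

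**Figure D2:**
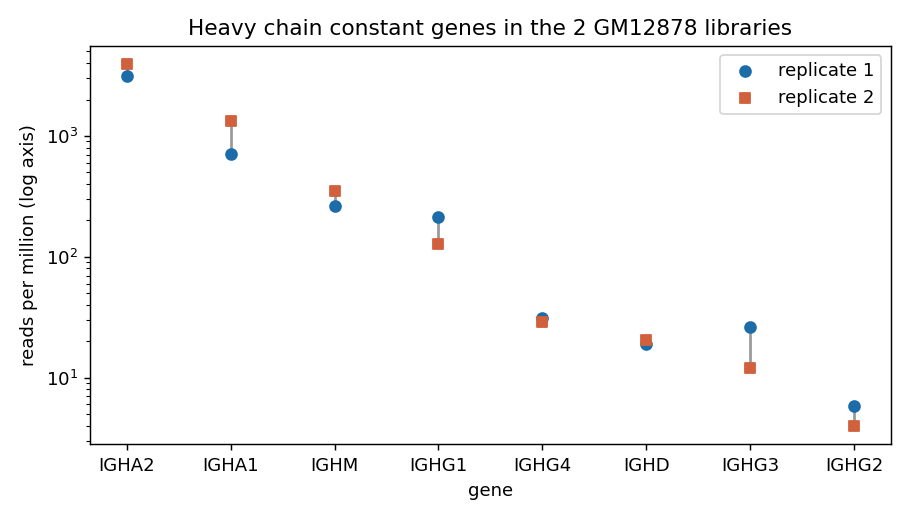
CPM (reads of a gene scaled to the library total, log axis) of the 8 genes in the 2 libraries, ordered by mean; a gray line joins the libraries of a gene. IGHA2 sits highest at 3135 and 3932, IGHA1 and IGHM follow, and IGHG4, IGHD, IGHG3 and IGHG2 lie at or below 30.9.

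To compare the libraries, the reads of each gene were set against the library totals with a two-sided exact binomial test over 10634 genes with at least 10 reads. In all, 537 genes (5.05%) passed an adjusted p of 0.05 after Benjamini-Hochberg adjustment, 289 (2.72%) higher and 248 (2.33%) lower in replicate 2. Of the 8 constant genes, 4 passed, 3 of them higher and 1 lower. Of the 4 that passed, IGHA1 had the largest difference, with a log2 ratio of replicate 2 to replicate 1 of 0.89 (adjusted p = 2.13e-56, exact binomial test with Benjamini-Hochberg adjustment). IGHM was higher by 0.41 (adjusted p = 0.0015, the same exact test) and IGHA2 by 0.33 (adjusted p = 4.43e-27, the same exact test). IGHG1 was lower, with a log2 ratio of -0.73 (adjusted p = 3.89e-06, the same exact test).

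IGHD, IGHG2, IGHG3 and IGHG4 did not pass, with log2 ratios of 0.10, -0.54, -1.13 and -0.09. IGHG3 came nearest (adjusted p = 0.0886, exact binomial test with Benjamini-Hochberg adjustment). Because near-identical genes can trade reads, the members of a class were also counted as 1 gene, an alternative chosen after seeing the data. IgA was then higher in replicate 2 by 0.45 (adjusted p = 1.05e-66, exact binomial test) and IgG lower, with a log2 ratio of -0.67 (adjusted p = 6.93e-07, exact binomial test). With known models alone, IGHG1 had 6 and 12 reads, and its log2 ratio turned to 1.08 without passing (adjusted p = 0.353, exact binomial test). IGHM kept its direction there, with a log2 ratio of 0.49, but no longer passed (adjusted p = 0.0819, exact binomial test).

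Known models allowed the secreted and membrane forms to be counted in 4 genes. In IGHM the secreted model received 69 and 91 reads and the membrane model 17 and 19. The membrane share was 19.8% in replicate 1 (12.7 to 29.4%) and 17.3% in replicate 2 (11.3 to 25.4%), a mean of 18.5% ± 1.76. In IGHA1 the secreted model received 515 and 1028 reads and the membrane model 144 and 202. The membrane share of IGHA1 was 21.9% (18.9 to 25.2%) and 16.4% (14.5 to 18.6%), a mean of 19.1% ± 3.84. Among reads of known models, the secreted form was thus the larger in both genes and both libraries. The membrane shares of IGHM and IGHA1 overlapped. Known models held only 24.0% and 20.8% of IGHM reads, and 68.1% and 61.7% of IGHA1 reads. The IGHA1 share also leaves out all reads labelled IGHA2, and the split between these genes is uncertain.

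The use of a known model within its gene was compared between the libraries with Fisher's exact test over 3443 models, of which 621 (18%) passed. The membrane model of IGHA1 was 5.43 percentage points lower in replicate 2 than in replicate 1 as a share of the known reads of its gene, recorded as a difference of -5.43 (adjusted p = 0.0276, Fisher's exact test with Benjamini-Hochberg adjustment). The call was lost when models of any count were tested (adjusted p = 0.123, the same exact test). In IGHM the difference was -2.49 percentage points (adjusted p = 0.921, Fisher's exact test), which did not pass.

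The other genes gave too few known reads for a share of use. IGHG1 had 4 and 8 reads in the secreted model and 2 and 4 in the membrane model. IGHD had 3 and 0 reads in the membrane model and 0 and 5 in the secreted model, so no library had known reads of both forms. No known model of IGHA2, IGHG2, IGHG3 or IGHG4 had a read. Incomplete models of the suffix subtype, which by label keep the 3′ end, were then added where exon number and length matched 1 form only. The mean membrane share became 33.3% in IGHM, 20.6% in IGHG1 against 33.3% with known models only, and 75% in IGHD. IGHD then had 8 membrane and 3 secreted reads of incomplete models in replicate 2, and 5 and 0 in replicate 1. IGHM gained membrane reads only, 17 and 27, and none for the secreted form, while this rule left 30 and 44 of its suffix reads unassigned. The suffix models of IGHM included a model of 4 exons and 2021 bases (14 and 20 reads), longer than both annotated forms (1485 and 1686 bases). The annotated secreted form has 4 exons in full, so the membrane share depends on the matching rule. Incomplete models marked as both suffix and prefix, with 99 and 185 reads in IGHM, were not added.

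The reads were then divided by the category of their model. Beside known models, an incomplete splice match (ISM) by name holds part of the junctions of a reference transcript. NIC models join annotated splice sites in a new way, and NNC models use at least 1 new splice site. Genomic models overlap a gene without matching its splicing. In IGHA2, with at most 5 annotated exons, ISM models of 6 exons held 312 and 310 reads. In IGHG1, where 6 is the annotated maximum, ISM models of 7 exons held 51 and 16 reads. Such models cannot be part of an annotated transcript of their gene, and the transcript they were matched to is not given. Over all reads, the means were 50.9% known, 27.9% ISM, 3.50% NIC, 3.76% NNC and 13.2% genomic.

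IGHA2 had no read in a known model or a genomic one. Its reads were ISM (67.3% and 78.0%), NIC (29.6% and 19.4%) and NNC (3.07% and 2.63%). Of 793 genes with at least 500 reads, 14 had no known read, and IGHA2 had the second highest count among these, after the light chain variable gene IGLV2-14. By NIC share IGHA2 ranked 10 of the 793. IGHA1 showed the opposite make-up, with 68.1% and 61.7% known reads, 31.4% and 37.5% genomic reads, and no NIC or NNC read. Nearly all of its genomic reads, 299 and 728, belonged to a single model of 1 exon and 425 bases.

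IGHM reads were also mostly ISM (54.6% and 70.2%), with 24.0% and 20.8% known reads. The genes with category shares closest to IGHM, by the sum of absolute differences over the 5 categories among those 793 genes, were QARS at 7.34 percentage points, MYO1G at 8.08 and PTPN6 at 9.67, where 200 is the largest sum possible. IGHG1 held 2.07% and 6.19% known reads, with NIC (42.8% and 43.3%) and ISM (41.4% and 40.7%) in nearly equal parts. IGHD had 11.5% and 16.1% known reads, IGHG4 was mostly NIC (85.7% and 61.4%), IGHG3 almost wholly genomic (100% and 94.4%), and IGHG2 had 5 genomic reads of 8 and 3 of 6.

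**Figure D3:**
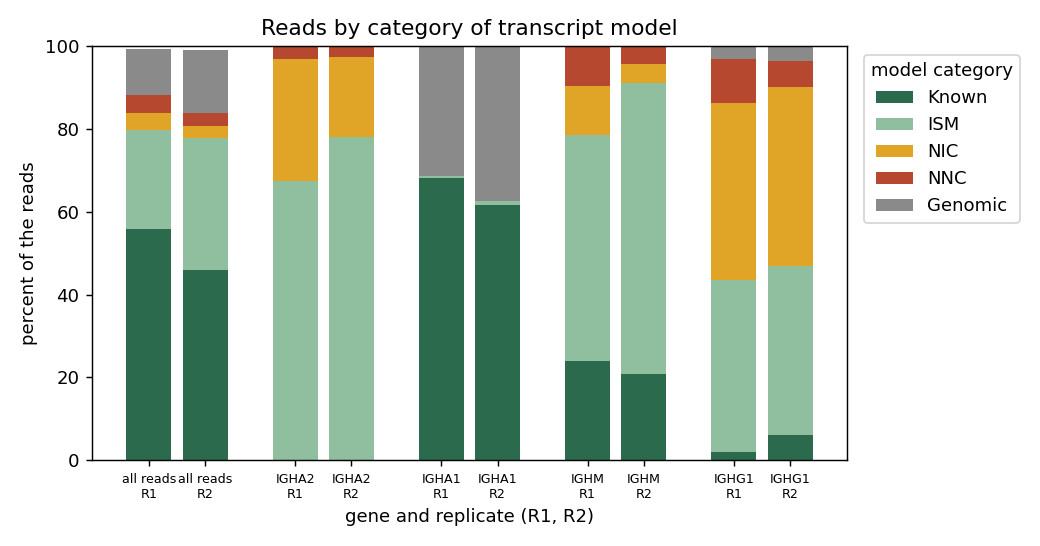
Percent of reads by model category in each library (R1, R2 on the x axis) for all reads and for the 4 constant genes with most reads. IGHA2 has no known share, IGHA1 has known and genomic reads, and IGHM and IGHG1 are mostly ISM or NIC; antisense and intergenic reads are left out of the bar of all reads.

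The known share of reads was compared between libraries with Fisher's exact test over 6340 genes with at least 20 reads in each, and 1721 (27.1%) passed, 1704 (26.9%) lower and 17 (0.268%) higher in replicate 2. Of the members tested, IGHA1 passed, with 68.1% against 61.7% (difference -6.46 percentage points, adjusted p = 0.00417, Fisher's exact test with Benjamini-Hochberg adjustment). Without genomic models its difference was -0.76 points and did not pass (adjusted p = 0.340, Fisher's exact test). The differences of IGHM (-3.20 points), IGHG1 (4.12 points) and IGHD (4.59 points) did not pass, and IGHA2 was at 0 in both libraries.

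ISM models differed in their subtype, which names the end that is kept. For models with more exons than any annotated transcript of their gene, the transcript whose end is kept is not known. Over the whole table, 68.3% and 67.95% of ISM reads were of the suffix subtype, which keeps the 3′ end. In IGHM the suffix subtype held 24.0% and 19.1% of ISM reads and the subtype marked as both suffix and prefix held 50.5% and 49.7%. In IGHA2 the suffix subtype held 32.2% and 50.6%, and the prefix subtype, which keeps the 5′ end, held 42.4% and 18.03%. In IGHG1 the suffix subtype held 25.8% and 43.0% and the prefix subtype 55.8% and 26.6%. Prefix was thus the larger of these subtypes in replicate 1 and suffix in replicate 2 for both genes, a difference given without a test.

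Many models held more exons than any annotated transcript of their gene. IGHA2 has at most 5 annotated exons, and 1310 reads (30.7%) and 1020 reads (17.2%) had more, up to 9. In IGHG1, where 6 exons is the annotated maximum, it was 115 reads (39.7%) and 35 reads (18.04%). In IGHM, also with 6, it was 50 reads (13.9%) and 38 reads (7.17%). IGHA1 had none. A rearranged variable region adds exons to the constant exons, and whether the extra exons here belong to variable genes was not tested.

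IGHA2 models were also long. The longest annotated IGHA2 transcript is 1320 bases, whereas 43 models of 2893 to 6766 bases held 1465 reads (34.3%) and 2454 reads (41.3%) at a boundary of 2500 bases set after the lengths were seen. No IGHA1 read and only 4.18% and 3.40% of IGHM reads lay above it. The read-weighted model length was 2138 and 2102 bases in IGHA2, 1491 and 1326 in IGHM, 1410 and 1147 in IGHG1, and 930 and 883 in IGHA1. The leading IGHA2 models were an ISM of 2 exons and 561 bases (578 and 1107 reads), a NIC of 5 exons and 3820 bases (272 and 448 reads), an ISM suffix of 4 exons and 3403 bases (213 and 479 reads), and an ISM prefix of 5 exons and 1608 bases (408 and 214 reads).

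**Figure D4:**
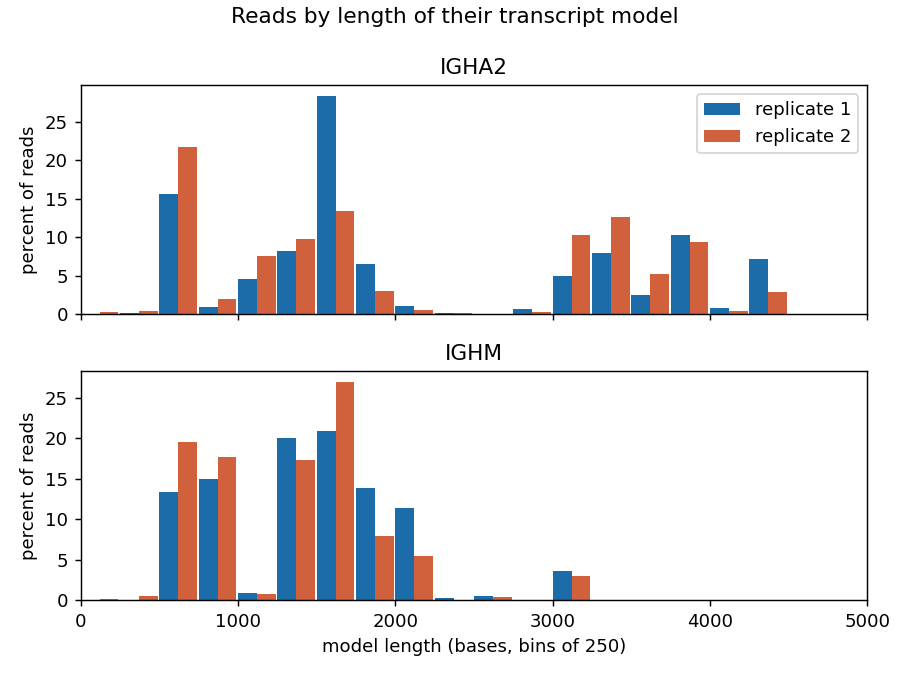
Percent of IGHA2 and IGHM reads by the length of their model in bins of 250 bases, for replicate 1 and replicate 2. IGHA2 has a separate group of models between about 2750 and 4500 bases that IGHM lacks apart from a small bin; an IGHA2 model of 6766 bases lies outside the axis.

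The table gives no positions, so the order of the new model identifiers was set against the order of the genes. Outside the heavy chain locus, 6431 of 6545 neighbouring pairs of new chromosome 14 models (98.3%) had gene starts in order. Pairs of models of the same gene count as in order there. This share therefore cannot show that identifiers follow the genome from gene to gene. By coordinate, IGHA2 lies before IGHE, IGHGP, IGHA1 and IGHG3. Of its 770 models, 179, with 429 reads (10.1%) and 745 reads (12.5%), had identifiers before the first IGHE model. A further 323 models with 1814 reads (42.5%) and 2902 reads (48.8%) came after the pseudogene IGHGP and before the first IGHA1 model. Another 267 models with 2022 reads (47.4%) and 2293 reads (38.6%) fell between the first IGHA1 model and the first IGHG3 model. None lay between IGHE and IGHGP, and 1 model came after the first IGHG3 model. The bounds at IGHE and IGHGP rest on 2 new models each. Among the 12 new IGHG4 models, identifiers ran from before the first IGHE model to after the last IGHGP model. By coordinate, IGHG4 lies between these genes.

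The long models stood almost wholly in the middle interval, where they took 80.7% and 84.5% of the reads, with a read-weighted length of 3327 and 3218 bases. The interval after the first IGHA1 model had read-weighted lengths of 1253 and 1005 bases and 1 long read in each library. The new IGHG1 models also lay in several intervals: 80 and 61 reads lay between IGHE and IGHGP, 45 and 51 after IGHGP, 49 and 40 after the first IGHA1 model, and 110 and 30 after the first IGHG3 model. Where these reads aligned was not tested, and the split between IGHA1 and IGHA2 and among the IgG genes is uncertain for this reason too. The IGHA2 reads of models before the first IGHE model (429 and 745) were fewer than the reads labelled IGHA1 (967 and 1994).

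**Figure D5:**
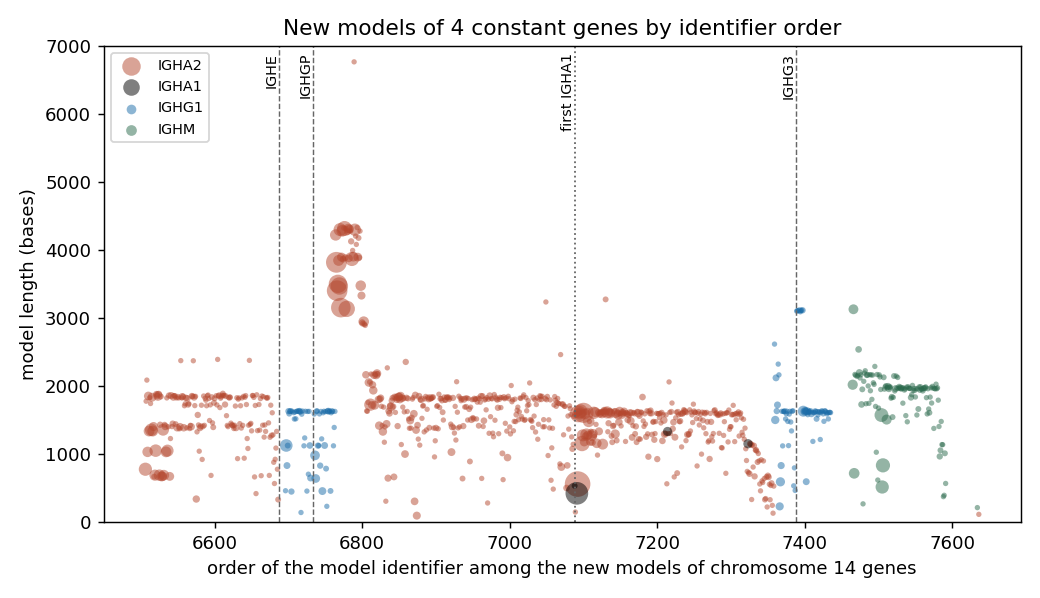
Model length in bases against the order of the model identifier among new chromosome 14 models, for IGHA2, IGHA1, IGHG1 and IGHM; point area grows with reads, and vertical lines mark the first IGHE, IGHGP, IGHA1 and IGHG3 models. IGHA2 points fall in 3 stretches and 1 single model, and the middle stretch holds nearly all models over 2500 bases.

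Pairs of IGHA2-labelled models with the same exon number and a length difference of 18 bases, the number of extra bases of the IGHA2 membrane part, were looked for after that number was seen. Before IGHE, the models of 3 exons with 674 and 692 bases had 22 and 47 reads in replicate 1 and 50 and 102 in replicate 2, so that the longer took 68.1% and 67.1%. Models of 4 exons with 1034 and 1052 bases gave 63.6% and 67.2% to the longer. After IGHGP, models of 3 exons with 3136 and 3154 bases gave 66.5% and 68.3%. Over all intervals, 22 such pairs of lengths had at least 20 reads together. The longer length had more reads in both libraries in 14 of them, the shorter in 6, and 2 were mixed. Before IGHE the longer led in 5 of 6 pairs and after IGHGP in 5 of 7. After the first IGHA1 model the longer led in 4 of 9 and the shorter in 5, among them 5 exons with 1592 and 1610 bases (335 and 5 reads over both libraries). The longer length thus did not lead throughout. Pairs at other length differences were not counted, so these counts cannot show that a difference of 18 bases is unusual. Which bases make the difference in length was not tested.

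Recurrence was like that of the whole table. Of the 1093 models of the members, 319 (29.2%, 26.6 to 31.95%) had a read in both libraries, against 29.6% of all models. IGHA2 had the second highest number of models of any gene, 770, of which 458 rested on a single read and 245 recurred. IGHA1 had 6 models, of which 5 recurred, and IGHM had 129, of which 20 did.

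The genes around the constant genes had few reads. The 9 heavy chain variable genes with a read held 40 and 89 reads, most in IGHV3-21 (29 and 70), then IGHV5-78 (6 and 11) and IGHV3-23 (0 and 4). Joining segments held 1 and 1 read, in IGHJ5, and diversity segments 1 and 2. IGHE, the IgE constant gene, had 4 and 1 reads, the pseudogene IGHGP had 0 and 2, and IGHEP1 none. Heavy chain reads were thus listed mostly under the constant genes.

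Genes that act with the constant genes were taken from lists. Of 12 class switching genes, 11 were tested and 2 were lower in replicate 2: XRCC5 (702 and 627 reads, log2 ratio -0.31) and XRCC6 (743 and 702 reads, -0.23, adjusted p = 0.0455, exact binomial test), the Ku proteins that bind DNA ends. The median log2 ratio of the 11 was -0.21, against 0.01 over all genes tested, of which 2.33% were lower and 2.72% higher.

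Of 8 genes of antibody assembly and secretion, 6 were tested and 3 were lower: JCHAIN, the joining chain of polymeric IgA and IgM (272 and 192 reads, log2 ratio -0.65), HSPA5, the chaperone BiP (802 and 570 reads, -0.64), and HSP90B1 (592 and 475 reads, -0.47). Over all genes tested 2.33% were lower. The median of the 6 was -0.48, while IgA counts were higher in the same library. The surface receptor partners CD79A (936 and 1026 reads) and CD79B (113 and 125 reads) did not pass. Of 9 symbols listed for the choice between the secreted and membrane ends, 8 were in the annotation and tested, and HNRNPH1, an RNA-binding protein, was higher (70 and 175 reads, log2 ratio 1.16, adjusted p = 3.23e-07, exact binomial test), against 2.72% of all genes tested.

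Plasma cell markers summed to 1100 and 919 CPM. Of the 7 markers 6 were tested, and 2 of these, JCHAIN and IRF4, were lower in replicate 2, against 2.33% of all genes tested. SDC1 had 50 and 52 reads, and PRDM1, the plasma cell regulator Blimp-1, had 4 and 3. Of the 7 B cell markers, all tested, CR2 (45 and 100 reads, log2 ratio 0.99) and CD74 (10565 and 12221 reads, 0.06) were higher in replicate 2, against 2.72% of all genes tested. The part of the lower known share of all reads in replicate 2 in these differences was not tested.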

How the data were processed

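Direct RNA of GM12878 was measured in 2 libraries of 1 group, prepared from depleted RNA, per the labels' protocols. The authors deposited raw read counts per transcript model, with the exon number and length of each model as other properties. The submitters' processing notes name minimap2 and hg38. The table's name shows TALON, and versions, annotation release and filters are not given in the sources used here. No per-sample column was left unused (0).

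Counts were summed per gene identifier. Known models of the members matched GENCODE release 29 (GRCh38) in length, 8 of 8 with a read of 17 annotated, and exon structures and sequences were taken from it. Sequences were aligned with Biopython 1.88 (match 2, mismatch -3, gap opening -8, gap extension -0.2). Gene counts were tested by two-sided exact binomial tests on the library totals (at least 10 reads in all), and known shares (at least 20 reads per library) and model use (at least 10 reads per model) with Fisher's exact test in scipy 1.17.1. All were adjusted by Benjamini-Hochberg over the table, threshold 0.05. The tests of gene counts and of shares, but not of model use, were tried on simulated data that held counting error only. Log2 ratios used a pseudocount of 0.5 reads. Intervals are Wilson 95% intervals; they and the limit of 3 reads for a count of 0 cover counting error only. Chi-square per gene between the libraries was 3.27 over 10634 genes, above the 1 that sampling alone gives, so the libraries are not copies; exact tests that allow only for counting error give small p-values under such spread. Alternatives used edgeR 4.0.16 and DESeq2 1.42.0 for scaling factors only, other read filters, other pseudocounts and leaving out a library.

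Named were all 8 members, their known models and leading models, other genes of the locus, the pathway and marker lists, and the 3 genes most like IGHM in category shares. The members and lists were chosen with earlier results of these data known. The length boundary, the identifier order and the 18-base pairs were chosen after seeing the data. Protein and promoter sequences of the members were not used here. Of the listed genes, 2 are not reported here by name.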

Additional observations from a re-analysis of the deposited data

How the results depend on the processing

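With 1 group of 2 libraries, leaving out a library gives the value of the other. The IgA share then ranged from 87.3 to 90.6%. The membrane share of known-model reads ranged from 17.3 to 19.8% in IGHM and from 16.4 to 21.9% in IGHA1. No paired analysis was possible because the libraries form 1 group. Per kb of model, the IgA share was 85.3%, and with genomic models left out IGHA1 took 13.7% and IGHA2 75.1% of constant gene reads. With known models only, IGHA1 took 89.0%, IGHM 9.76%, IGHG1 0.840% and IGHA2 0%, 1042 genes passed the comparison of counts, the log2 ratio of IGHG1 turned to 1.08 (6 and 12 reads) and that of IGHM, 0.49, no longer passed. Adding incomplete models of the suffix subtype alone moved the membrane share of IGHM to 33.3%. With models of 2 or more exons, 1008 genes passed the comparison of known shares, and IGHA1 did not. Asking for 5 reads in a library, 60.3% of the members' models recurred (94 of 156). Under edgeR and DESeq2 scaling, another pseudocount and other count minimums, the calls of IGHA1, IGHA2, IGHM and IGHG1 kept their direction and side of the threshold. The causes of these shifts were not tested. Low counts of IGHD and IGHG2 to IGHG4 limit their values.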
